A study of Capra hircus with 12 samples.

Results

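Testes of black goats (Capra hircus) at postpuberty (titles with D180, 3 libraries) were compared with testes at puberty (titles with D90, 2 libraries) to ask what still changes in testis RNA once puberty has begun. Every animal is labelled WT, and the labels name no treatment at either age. The puberty libraries carry the replicate numbers 2 and 3, and puberty replicate 1 was not analysed here. The members were the loci with an FPKM (fragments counted on a locus, divided by its length in kilobases and by the library total) of at least 1 in at least 2 of these 5 libraries, which kept 8792 of the 24116 listed loci (36.5%). The series holds 11 libraries with a table, and the 6 neonatal (D3) and prepuberty (D30) ones, called the younger libraries below, serve as a reference.

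At puberty the seminiferous tubules of the testis begin to produce sperm: spermatogonia enter meiosis, and spermatocytes, then round and elongating spermatids, fill the tubules beside the supporting Sertoli cells. Male germ cells in and after meiosis are known for transcribing an unusually large part of the genome, including many long non-coding RNAs. The libraries were made from total RNA of testis using an lncRNA kit. In such bulk samples, more cells of a type and more RNA per cell cannot be told apart.

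The loci have no gene names. Of the members, 8071 carry identifiers of the MSTRG form, given by a transcript assembler, and 721 carry the word gene with a number. None of the listed identifiers (0) matched the 28911 genes of the RefSeq table for assembly ARS1.2, and the files do not pair them with symbols, positions or sequences. The labelled tissue could therefore not be checked against its markers, and only 2 loci that rose and 2 that fell are named below. The rest are described by level, length, identifier and behaviour at the younger ages.

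The broadest difference between the ages was a small, shared shift toward higher values in postpuberty testes. Over all 24116 listed loci, which the rule does not restrict, an FPKM of at least 1 was reached by 6170 loci in puberty replicate 2 and 5500 in puberty replicate 3. In postpuberty replicates 1, 2 and 3 it was reached by 7962, 8018 and 9226 loci. The ages did not overlap. At an FPKM of at least 5 the counts were 757 and 762 in puberty and 1000, 990 and 1149 in postpuberty libraries, again without overlap. For the count at 1 FPKM, the means were 5835 ± 474 (SD, n = 2) and 8402 ± 714 (n = 3), a ratio of 1.44. The exact two-sided permutation test gave p = 0.2 (Benjamini-Hochberg adjusted p = 0.25 over 5 such values), and with 3 libraries against 2 no smaller p is possible. Library totals recovered from the values were 35614224 and 34526409 reads in puberty and 34719495, 28124423 and 30273753 in postpuberty libraries.

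The shift went with a larger share of each library on the listed loci. Without the 4 most abundant loci, these took 10.7% and 10.6% of the reads in puberty and 13.9%, 14.1% and 15.4% in postpuberty libraries (exact two-sided permutation p = 0.2, adjusted p = 0.25). The 4 most abundant loci themselves took 4.40% and 3.03% in puberty and 3.17%, 2.23% and 2.58% in postpuberty libraries, which overlap (exact two-sided permutation p = 0.4). FPKM values are relative to the whole library, most of which lies outside these tables.

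Postpuberty lay above puberty without overlap in 3865 of the 8792 members (44.0%), and below it in 220 (2.50%). Among all 24116 listed loci the counts were 7013 (29.1%) and 944 (3.91%). The median change of the members was 0.29 on the log2(FPKM + 1) scale, with quartiles of 0.10 and 0.51, and this scale understates the change of low loci. The rule itself favours loci that are high after puberty. It took in 1979 loci that reached 1 FPKM only in postpuberty libraries and 41 that reached it only in puberty libraries. In the 6772 loci that reached 1 FPKM at both ages, the median change was 0.23. The shift moved with the scaling: the median over members was 0.10 after median of ratios scaling and 0.03 after quantile normalization, and 0.02 and -0.05 for the 6772 loci. Quantile normalization brings such medians near 0 by construction. A statement that most loci were higher thus holds relative to the whole library only.

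**Figure D1:**
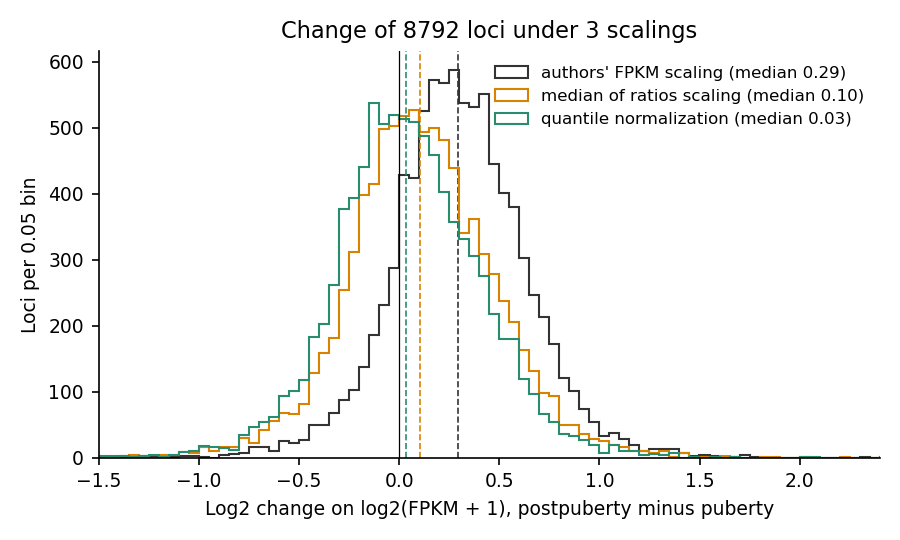
Histogram of the log2 change (postpuberty minus puberty, x axis) of 8792 loci in bins of 0.05 (y axis, loci per bin) under 3 scalings; dashed lines mark the medians. The distribution with the authors' FPKM scaling is centred at 0.29, and the distributions after median of ratios scaling and quantile normalization are centred at 0.10 and 0.03 with a similar width.

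A small part of the loci was also called singly, on changes that still include the shared shift. limma was fitted with a mean for each age, the younger libraries included, and called a locus at an adjusted p under 0.05 (Benjamini-Hochberg over the 8792 loci) and a log2 change of at least 1. By that rule 172 loci rose (1.96%), 20 fell (0.227%) and 8600 were not called. Of the rises, 77 were among the 1979 loci that the rule admitted through postpuberty libraries only, which had to be higher there. Among the 6772 loci that reached 1 FPKM at both ages, 95 rose (1.40%) and 15 fell (0.222%). The adjusted p alone was under 0.05 for 2177 higher loci (24.8%), whose median log2 change was 0.62, and for 60 lower loci (0.682%). Of the 172 rises, 171 had no overlap between the libraries of the ages, as did the 20 falls. Among all members 44.0% lay higher without overlap and 2.50% lower. The calls were made on the same libraries, so the lack of overlap is no separate support. These calls rest on a spread pooled over the 4 ages: with only the 5 compared libraries in the fit, limma called 0 loci, although 2165 (24.6%) had an unadjusted p under 0.05, 169 of the 172 rises and the 20 falls among them. The count also moved with the scaling and the pseudocount, to 90 rises and 29 falls after median of ratios scaling, 48 and 31 after quantile normalization, 757 and 25 after rescaling to TPM and 659 and 26 with a pseudocount of 0.1. The share of calls that were rises went from 89.6% to 75.6% and 60.8% under the first 2 of these. Of the 48 rises after quantile normalization, 33 were loci admitted through postpuberty libraries only. Among the 6772 loci, median of ratios scaling left 31 rises and 23 falls and quantile normalization 15 and 22, so the excess of rises there depends on the scaling.

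**Figure D2:**
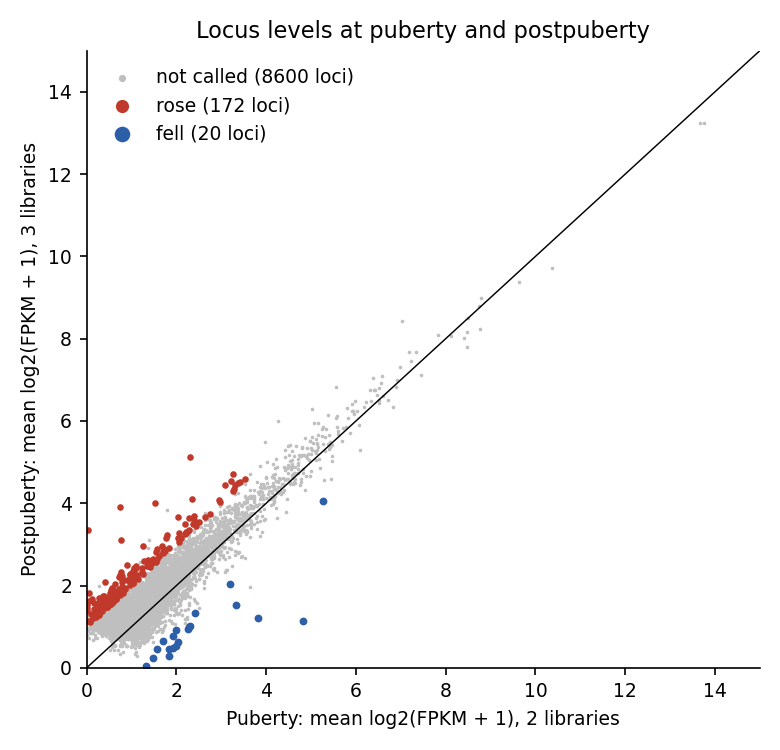
Mean log2(FPKM + 1) of each of 8792 loci in the 2 puberty libraries (x axis) and the 3 postpuberty libraries (y axis), with the line of equality. The 172 loci that rose (red) and the 20 that fell (blue) lie mostly below 4 on both axes, and the most abundant loci stay near the line.

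The loci that rose were scarce at puberty and modest afterwards. Their median FPKM was 0.906 and 0.673 in the puberty libraries and 3.08, 3.09 and 3.77 in the postpuberty libraries. In 94 of the 172 the puberty mean was under 1 FPKM, in 76 it was 1 to 10 and in 2 it was at least 10. After puberty 26 of them averaged at least 10 FPKM, and the highest postpuberty mean was 36.8. The median log2 change was 1.15, near the limit of the call, and 5 loci had a log2 change of at least 2. Recovered reads were few at puberty, with a median of 73 per locus over both libraries against 434 over the postpuberty libraries, and 26 loci had under 10 puberty reads.

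MSTRG.220267 (implied length 642 bases) showed the largest change among loci that rose and averaged at least 5 FPKM. It stood at 0.0437 and 0 FPKM in puberty replicates 2 and 3, a single read in all, and at 18.1, 5.26 and 7.72 FPKM in postpuberty replicates 1, 2 and 3. The lowest postpuberty library was far above both puberty libraries. This locus was among those that the rule admitted through postpuberty libraries only, which had to be higher there. It was also picked for libraries that do not overlap, so the gap is no separate support. Its log2 change was 3.31 ± 0.35 (SE, limma adjusted p = 0.000933). That SE rests on the spread pooled over the 4 ages. With only the 5 compared libraries in the fit, the limma adjusted p was 0.139. The ratio of reads, corrected for library totals, was 489, and its exact 95% interval of 87.4 to 19300 covers counting error only. In the 6 younger libraries it had 3 reads together and at most 0.116 FPKM, so its reads came almost entirely from the postpuberty testes. In the fit of 11 libraries it remained called without any 1 of them.

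MSTRG.283079 (4392 bases) was present at puberty at 0.786 and 0.587 FPKM and stood at 39.6, 1.92 and 28.1 FPKM in postpuberty replicates 1, 2 and 3. The postpuberty libraries differed among themselves far more than the puberty libraries did, and replicate 2 was only a little above puberty. This locus too was admitted through postpuberty libraries only and was picked for libraries that do not overlap. Its means were 0.687 ± 0.141 (SD, n = 2) and 23.2 ± 19.3 (n = 3) FPKM, and its log2 change was 3.17 ± 0.84 (SE, limma adjusted p = 0.0217). The reads behind it were many, 212 at puberty and 10014 after it, so each value has a small counting error. It lost its call without puberty replicate 2 (limma adjusted p = 0.0635) or 3 (0.0981) and without postpuberty replicate 1 (0.0504) or 3 (0.0669).

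The 20 loci that fell were mostly low before puberty too. In 19 of them the puberty mean exceeded both the neonatal and the prepuberty mean (75.5% of all members did so). By the call it also exceeded the postpuberty mean. The postpuberty mean still exceeded both younger means in 17 of the 20 (85.0%), against 79.8% of all members. Their median FPKM was 3.12 and 4.32 in the puberty libraries and 0.389, 0.549 and 1.10 in the postpuberty libraries, and it was at most 0.0243 in each of the 6 younger libraries. In 11 of the 20 the postpuberty mean was under 1 FPKM. The median log2 change was -1.28.

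MSTRG.68458 (2414 bases) was alike in both puberty libraries, at 26.8 and 27.7 FPKM, and stood at 1.10, 3.23 and 0.178 FPKM in postpuberty replicates 1, 2 and 3. The younger libraries held 0.0162 to 0.201 FPKM, a range that postpuberty replicates 1 and 2 exceeded and that replicate 3 fell within. The locus was thus far higher at puberty than before or after it. Its log2 change was -3.69 ± 0.38 (SE, limma adjusted p = 0.000933), and the puberty mean was 18.2-fold the postpuberty mean. That SE rests on the spread pooled over the 4 ages. With only the 5 compared libraries in the fit, the limma adjusted p was 0.139. Its postpuberty values differed widely, from 13 reads in replicate 3 to 219 in replicate 2, all far below the 2301 and 2310 puberty reads. In the fit of 11 libraries it remained called without any 1 of them.

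MSTRG.411412 (301 bases) had no read in the younger libraries. It stood at 8.40 and 20.1 FPKM at puberty and at 0, 8.27 and 0.329 FPKM in postpuberty replicates 1, 2 and 3. Postpuberty replicate 2 nearly reached puberty replicate 2, so the ages only just failed to overlap. Its log2 change was -2.61 ± 0.75 (SE, limma adjusted p = 0.0294). The call was lost when puberty replicate 3 was omitted (limma adjusted p = 0.179, log2 change -2.02), and likewise for postpuberty replicate 1 (0.0719) or 3 (0.0881). It was also lost in the test without a filter (0.0581), with a pseudocount of 0.1 (0.0763), with limma's voom on recovered reads (0.0657) and with the replicate block (0.0621).

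**Figure D3:**
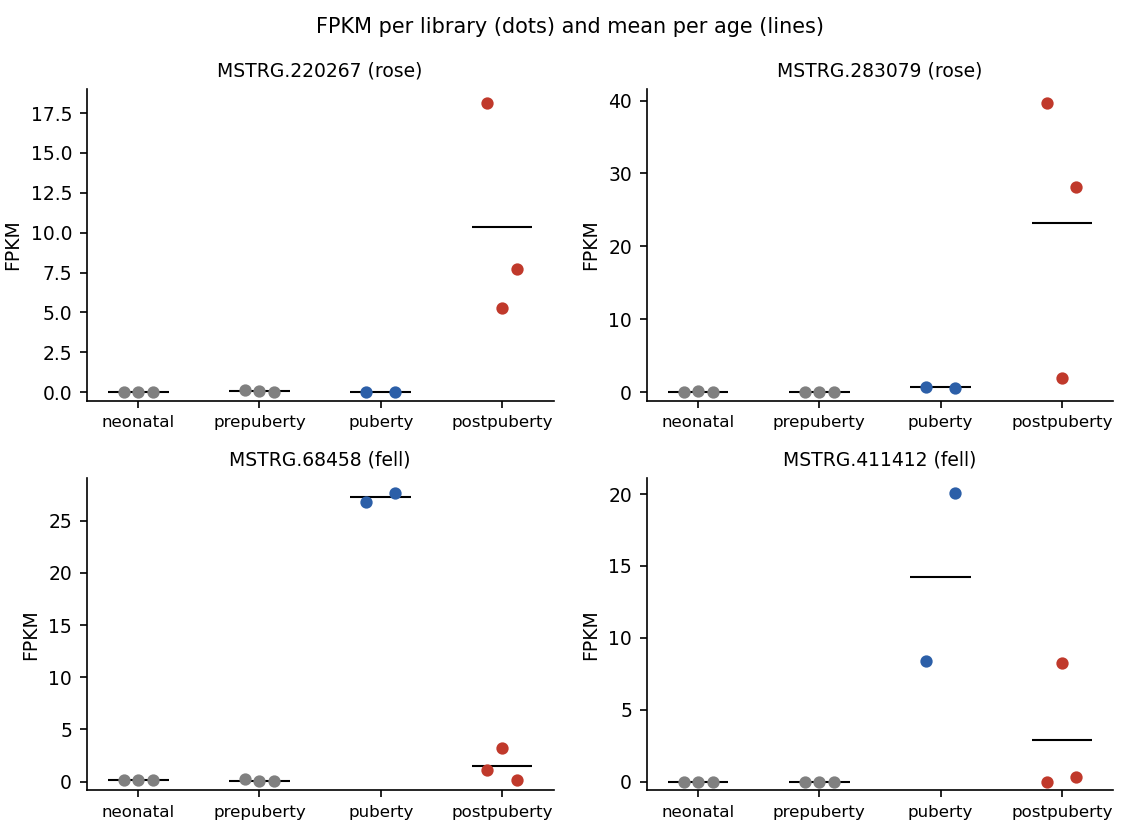
FPKM (y axis, linear) of the 4 named loci in each of 11 libraries (dots) by age, with the mean per age (lines). MSTRG.220267 and MSTRG.283079 are near 0 until postpuberty, where the 3 libraries spread widely, and MSTRG.68458 is near 27 in both puberty libraries and under 4 in the others.

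The level before puberty, in libraries that take no part in the difference, went with the size of the change. The 1287 members with no read in the 6 younger libraries had a median log2 change of 0.40, and the 2806 with reads but a younger mean under 0.1 FPKM had 0.39. The median was 0.29 for 2385 members at 0.1 to 1 FPKM, 0.18 for 2134 at 1 to 10 and -0.02 for 180 at 10 or more. In that order 5.13%, 2.46%, 1.30%, 0.281% and 0% of the loci rose, against 1.96% of all members. Relative to the median of all members, the lowest and the highest of these classes stood at 0.10 and -0.32 with the authors' scaling, 0.13 and -0.39 after median of ratios scaling, 0.11 and -0.29 after quantile normalization and 0.22 and -0.49 after rescaling to TPM. The order was thus kept while the zero line moved: the class at 1 to 10 FPKM had medians of -0.02 and -0.09 under the first 2 of these alternatives. These shares include the loci admitted through postpuberty libraries only. Among loci that reached 1 FPKM at both ages the medians were 0.29, 0.31, 0.23, 0.16 and -0.02, and 3.82%, 1.68%, 1.15%, 0.323% and 0% rose.

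For loci silent in the younger libraries the pooled spread was smaller than the spread of the compared libraries. The median residual SD of the 1287 members with no younger read was 0.32 on the log2 scale in the 5 compared libraries and 0.21 in the fit of 11, since 6 libraries at 0 add no spread. In members at 1 to 10 FPKM it was 0.16 and 0.20. Of the 172 rises, 66 had no younger read and another 69 averaged under 0.1 FPKM there, so most of the calls fall where the pooled spread was the smaller one. Fitted on the 4679 members with a value above 0 in every younger library, limma called 28 rises and 5 falls.

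**Figure D4:**
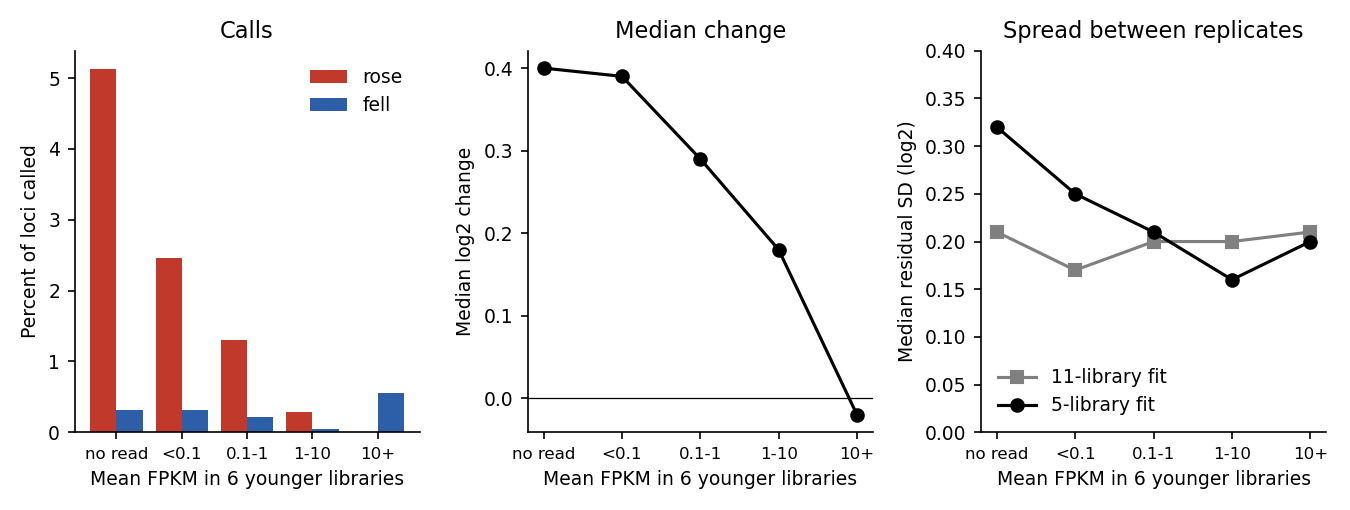
Members grouped by their mean FPKM in the 6 younger libraries (x axis): percent of loci that rose or fell (left), median log2 change (middle) and median residual SD in the fits of 11 and of 5 libraries (right). The percent that rose falls from 5.13 to 0 and the median change from 0.40 to -0.02, and the 2 fits differ most for loci with no younger read, at 0.21 and 0.32.

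Followed over the 4 ages, the loci that rose were low until puberty. Their median FPKM was 0 in each of the 6 younger libraries. In those libraries 66 rises had no read and 69 more averaged under 0.1 FPKM, against 1287 and 2806 of the 8792 members. The pooled spread was the smaller one for such loci, which makes a call easier to reach. Among the rises, 6 had a younger mean of at least 1 FPKM. The puberty mean exceeded both younger means in 161 of the 172 (93.6%), against 75.5% of all members. The puberty pair differed by more than 2-fold, or had 1 library at 0, in 93 rises (54.1%), against 23.5% of all members, and the rises were low at puberty by the way they were called. Puberty replicate 3 was the lower of the pair in 62.8% of the rises and 56.1% of all members. Postpuberty replicate 3 was the highest of its group for 49.4% of the rises and 50.3% of all members.

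**Figure D5:**
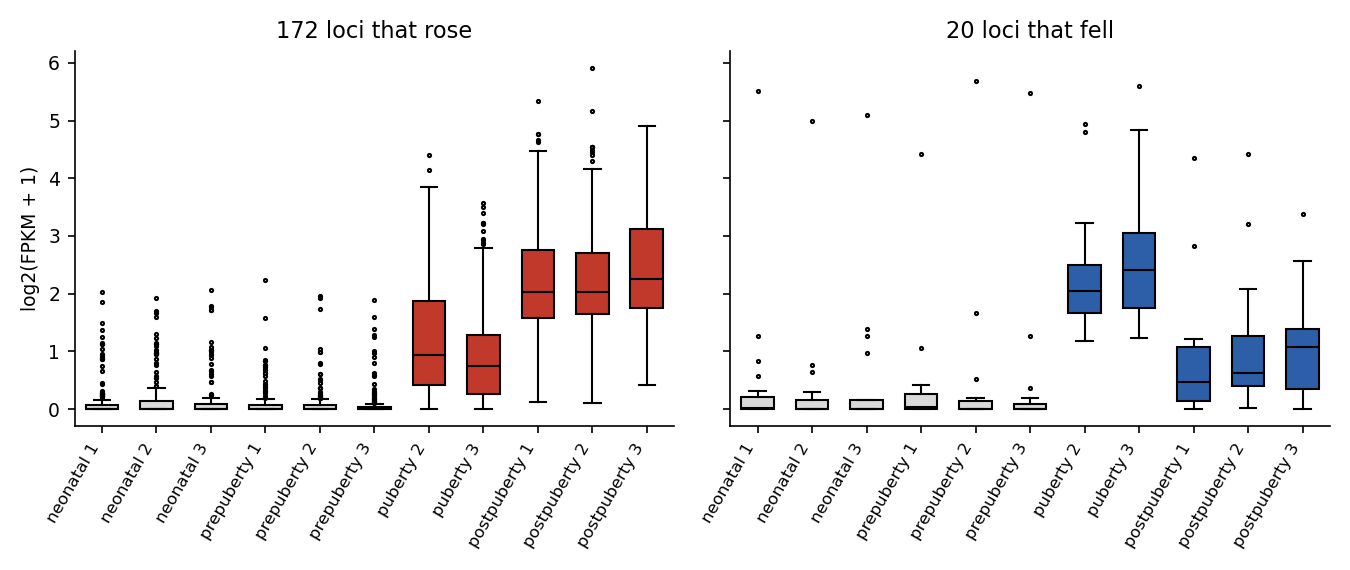
Box plots of log2(FPKM + 1) in each of 11 libraries (x axis) for the 172 loci that rose (left) and the 20 that fell (right); boxes show quartiles, whiskers reach to 1.5 times the box height and dots are loci beyond. The rises step up from the 2 puberty to the 3 postpuberty libraries, and the falls are highest in the 2 puberty libraries.

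The puberty pair was the less uniform group. Across the 8792 members, the Pearson correlation of log2(FPKM + 1) was 0.87 between the puberty libraries and 0.89 to 0.91 between postpuberty libraries. Between the ages it was 0.84 to 0.89, a range that includes the value of the puberty pair. These are correlations across loci, which share their libraries and are not replicates. A difference of at least 1 on the log2 scale separated the puberty libraries in 4.98% of the members, the postpuberty pairs in 2.73% to 4.33% and pairs from different ages in 4.32% to 13.6%. The last and largest value belongs to puberty replicate 3 and postpuberty replicate 3, with 1101 loci higher and 95 lower in the latter. Without puberty replicate 2, limma called 478 rises and 35 falls. Without puberty replicate 3 it called 171 rises, of which 82 were among the 172, and 25 falls, of which 7 were among the 20.

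Of the 192 calls (2.18% of the members), 39 rises and 5 falls were also made without each of the 5 compared libraries in turn. When median of ratios scaling, quantile normalization, TPM, a pseudocount of 0.1 and voom were each required as well, 17 rises and 3 falls were left, MSTRG.220267 and MSTRG.68458 among them. MSTRG.283079 and MSTRG.411412 were not among them. All of these fits kept younger libraries in the pooled spread, and limma on only the 5 compared libraries called 0 loci.

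The median change hardly differed with locus length, but length went with how well a change could be seen. The median log2 change was 0.28 for the 773 members of up to 500 bases, 0.29 in each of the classes of 500 to 1000, 1000 to 2000 and 2000 to 5000 bases, and 0.31 for the 2286 members over 5000 bases. The shortest class had a median of 17 reads per library and a residual SD of 0.35 in the 5 libraries, and the longest had 509 reads and 0.16. Postpuberty lay above puberty without overlap in 29.8% of the shortest and 58.9% of the longest, against 44.0% of all members. The share that rose by the call went the other way, at 3.75% and 0.787%, against 1.96% of all members. Large fitted changes were thus more frequent in short loci with few reads, and small separated ones in long loci.

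Loci with a gene number shifted less than MSTRG loci. Their median log2 change was 0.14 against 0.31. Postpuberty lay below puberty without overlap in 8.74% of the 721, against 1.95% of the 8071 MSTRG members and 2.50% of all members. Under median of ratios scaling the medians were -0.10 and 0.12, and under quantile normalization -0.13 and 0.05, so the sign for loci with a gene number depends on the scaling while the order is kept. The younger level moved with this: 481 of the 721 had a younger mean of at least 1 FPKM, against 1833 of the 8071. Among members with such a younger mean, the medians were 0.10 and 0.19, and among the others 0.27 and 0.36. Its part in the difference was not tested.

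With the authors' FPKM scaling, a complete crossing of 1 FPKM was far more frequent upward than downward. Crossings were not counted after median of ratios scaling or quantile normalization, which lowered the median change of the members to 0.10 and 0.03. In 828 listed loci (3.43%) every postpuberty library held at least 1 FPKM and both puberty libraries held less. In 41 (0.170%) the reverse was seen. The levels behind these crossings were close to the limit, with median means of 0.674 FPKM at puberty and 1.45 at postpuberty for the 828, and of 1.21 and 0.663 for the 41. Of the 828, 60 were among the rises. Over all 24116 listed loci, 1532 (6.35%) had no read in either puberty library and 933 (3.87%) had none in the 3 postpuberty libraries. No read at puberty and a value above 0 in every postpuberty library was seen for 181 loci (0.751%), and the reverse for 66 (0.274%). Both comparisons set 2 libraries against 3, and no read in any library is harder to reach with 3. The counts are therefore not like for like, and how far they differ for that reason was not tested. Loci just inside the rule, with exactly 2 libraries at 1 FPKM, numbered 1750 and had a median second-highest value of 1.13 FPKM. The 2860 loci just outside, with exactly 1 such library, had 0.789.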

How the data were processed

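Each deposited table held 1 FPKM value per locus for 1 library, as made by the authors. Per the submitters' processing notes, HISAT2 2.1.0 and StringTie 2.1.1 were used. For the build, annotation, read counter and filters, the entry is: not given in the sources used here. In low values the FPKM steps correspond to single reads, and for all 24116 loci a length was found that made every value whole (tolerance 0.01 reads). This gave reads, lengths and library totals of 28124423 to 35614224 reads for the compared libraries. A length can come out too short where the reads of a locus share a factor. Intervals from these reads cover counting error only.

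The tool was limma 3.58.1 (R 4.3.3) on log2(FPKM + 1) with a variance trend, leaving 7 residual degrees of freedom (3 with 5 libraries). Tests were two-sided. The procedure was tested on simulated data. The labels do not say that replicates are separate animals, so p-values reflect the spread between samples, which may be technical. Libraries of an age differed beyond sampling noise (mean chi-square of a locus 25.4 to 47.7). Named loci are the 2 rises and 2 falls with the largest change among called loci that do not overlap and average at least 5 FPKM over the 5 libraries. Members, lists and rules were chosen with earlier results of these data known. Permutation tests used scipy 1.17.1.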

Additional observations from a re-analysis of the deposited data

How the results depend on the processing

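The number of loci that rose was 172 and of those that fell 20. They were 659 and 26 with a pseudocount of 0.1 and 757 and 25 after rescaling to TPM. They were 50 and 3 with an FPKM of at least 1 in all 5 libraries, 253 and 10 with voom on the reads of 11 libraries (62 of the rises shared), and 0 and 0 with voom or limma on the 5 libraries alone (2282 and 2165 loci at an unadjusted p under 0.05). Median of ratios scaling gave 90 and 29 and quantile normalization 48 and 31. With only loci above 0 in all 6 younger libraries, chosen after seeing the data, they were 28 and 5. Leaving out 1 library gave 159 to 478 rises and 17 to 35 falls, the highest without puberty replicate 2. The median log2 change of 0.29 was 0.47 with the pseudocount of 0.1 and with TPM, 0.49 with voom on 11 or 5 libraries, 0.10 after median of ratios scaling, 0.03 after quantile normalization, 0.15 without a filter and 0.18 with a filter over all 11 libraries. With 1 library left out it was 0.26 to 0.33. The median was above 0 in each of these settings, most of which keep the rule that favours loci high after puberty. Among the 6772 loci that reached 1 FPKM at both ages it was 0.02 after median of ratios scaling and -0.05 after quantile normalization. Each named locus kept its direction wherever it was tested. The named loci were picked for libraries that do not overlap, so leaving out a library or changing the pseudocount could not reverse them. None was tested with an FPKM of at least 1 in all 5 libraries, and MSTRG.68458 alone with only loci above 0 in the younger libraries. MSTRG.283079 also lost its call with voom on 11 libraries (limma adjusted p = 0.175) and after quantile normalization (0.0561), and MSTRG.411412 after quantile normalization (0.0589) and TPM (0.0842). In the fit of 5 libraries the named loci had limma adjusted p of 0.139 to 0.172.

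Replicate numbers 2 and 3 are shared by both ages, but nothing in the labels ties them to a litter or batch. The deviations of same-numbered libraries correlated at -0.13 and -0.05. With only 2 puberty libraries, their deviations from the mean mirror each other, so these values cannot tell whether a batch was shared. With the replicate block, 179 loci rose, 16 fell and the median log2 change was 0.30. Where a value differs between settings and no cause is given above, the cause was not tested. Depth limits the loci with few reads, and 26 of the 172 rises had under 10 puberty reads.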
